A study of Mus musculus with 55 samples.

Results

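The genes described here are 10 markers of GABAergic interneurons, measured by RNA-seq of the ventral dentate gyrus. They were chosen by name and comprise the GABA synthesis and transport genes Gad1, Gad2 and Slc32a1, the neuropeptide genes Sst, Vip, Npy, Cck and Tac1, the calcium-binding protein gene Pvalb and the transcription factor gene Lhx6. All 10 were found among the 45318 identifiers of the deposited tables, and all 10 passed the filter on low counts that left 18283 genes for testing. Punches came from single male C57BL/6J mice raised from weaning in standard housing (SH, small groups in plain cages) or in an enriched environment (EE, larger groups with tunnels, objects and running wheels). As young adults the mice were left unstressed as controls or exposed to chronic social defeat stress (CSDS), in which an aggressive CD-1 male defeats the mouse day after day. Defeated mice were classified as resilient (RES) or susceptible (SUS) by their social interaction ratio. The SH arm held 10 controls, 7 RES and 10 SUS animals and the EE arm held 9 of each, all of the same strain and sex and with no transgene.

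GABAergic interneurons are the local inhibitory neurons of the hippocampus. They make GABA with the glutamate decarboxylases GAD67 and GAD65, load it into vesicles with the transporter VGAT, and fall into classes that are told apart by a peptide or calcium-binding protein they contain. In the dentate gyrus, somatostatin cells of the hilus contact granule cell dendrites, parvalbumin cells contact granule cell bodies, and VIP cells mostly contact other interneurons. Lhx6 is needed for the parvalbumin and somatostatin classes to form, whereas VIP cells and most CCK cells come from another progenitor zone. Several of these genes are not restricted to interneurons, since pyramidal and mossy cells also express Cck and granule cells can express Npy and Gad1.

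The peptide genes have long served as models of transcription that follows cAMP, which acts through the CRE element and the factor CREB. The 100 bases upstream of the RefSeq start sites (GRCm38.p6) were therefore searched on both strands for the CRE core TGACG, whose reverse complement is CGTCA. All 10 genes had a window, with 13 start sites in all. The 5 genes whose windows held the core are shown first as 30 bases around it, read 5′ to 3′ on the strand of the gene, with the core in capitals, to compare the sites.

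Sst (chr16:23890874-23890903, minus strand): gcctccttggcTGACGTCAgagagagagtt

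Vip (chr10:5639127-5639156, plus strand): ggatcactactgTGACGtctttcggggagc

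Cck (chr9:121495724-121495753, minus strand): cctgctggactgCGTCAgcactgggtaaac

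Tac1 (chr6:7555006-7555035, plus strand): gctctacaggctCGTCAcgcctgagataaa

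Gad2 (chr2:22622282-22622311, plus strand): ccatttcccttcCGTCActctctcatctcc

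In Sst the core lay on both strands and overlapped itself, which gave the full palindrome. Counted from the start site, the cores began at -48 and -45 in Sst, at -79 in Vip, at -47 in Cck, at -43 in Tac1 and at -33 in Gad2. By comparison, 10.5% of all 32851 RefSeq windows of the same 100 bases held the core. The letters were not found in the 100 bases of Gad1, Slc32a1, Npy, Pvalb or Lhx6. The whole upstream window of Npy, the member with the smallest p after defeat, is shown for comparison with that of Vip, in which the core is again in capitals.

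Npy (chr6:49822610-49822709, plus strand): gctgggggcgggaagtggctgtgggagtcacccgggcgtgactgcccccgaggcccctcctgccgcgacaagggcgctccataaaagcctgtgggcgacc

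Vip (chr10:5639118-5639217, plus strand): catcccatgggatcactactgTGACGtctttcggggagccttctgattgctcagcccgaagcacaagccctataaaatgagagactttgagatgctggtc

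A match of these letters describes the sequence only and does not show binding.

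The libraries held between 32223034 and 49990637 read pairs each. Counts assigned to genes on the transcript strand ranged from 16760009 to 24426804 per mouse, except for EE control mouse 9, which was sequenced in 2 runs and reached 45872357. At this depth the least abundant member, Tac1, had 79 to 275 counts per mouse and the most abundant, Gad1, had 5278 to 17127. Markers of dentate granule cells were present in all mice, with the summed level of 6 markers (Prox1, C1ql2, Dsp, Pdyn, Lct, Trpc6) between 372.8 and 838.4 CPM (counts scaled to a common library size). Markers of neighboring tissue varied more. Thalamic markers summed to between 98.66 and 557.3 CPM, and the summed choroid plexus level had group medians from 20.03 to 22.74 CPM but reached 964.2 CPM in an SH control mouse. In such bulk tissue, fewer cells of a type and less RNA per cell cannot be told apart.

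Corrected for the combined length of all their annotated exons, the members spanned a wide range of levels. This length, 566 bases for Npy and 7639 for Gad1, can exceed that of the transcript expressed. The order of the genes depends on it, and the SDs over mice do not cover that error. Cck was the highest at 139.8 ± 14.5 CPM per kb (SD over the 54 mice), followed by Sst at 60.29 ± 9.364 CPM per kb. Npy at 45.39 ± 6.058 and Gad1 at 44.82 ± 2.31 CPM per kb did not differ beyond their spread, with Npy the higher in 29 of 54 mice. Gad2, at 18.57 ± 1.793 CPM per kb, was below Gad1 in all 54 mice. Pvalb reached 12.83 ± 3.182 and Slc32a1, which encodes VGAT, 7.443 ± 1.236 CPM per kb. The lowest levels were those of Vip, Lhx6 and Tac1, at 3.221 ± 0.5334, 2.117 ± 0.2784 and 1.707 ± 0.2782 CPM per kb. Apart from Npy and Gad1, each neighbor in this order stood above the next in at least 46 of 54 mice, with the fewest for Lhx6 over Tac1. The spread between mice also differed among members. The coefficient of variation of CPM was 5.154% for Gad1, at most 16.61% for the 8 members between and 24.8% for Pvalb.

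The first question was whether housing or defeat changed these genes. In the test across the 6 groups (edgeR quasi-likelihood F-test with Benjamini-Hochberg adjustment over the 18283 genes), 0 of 10 members passed an adjusted p of 0.05, against 0.35% of all genes tested. At an unadjusted p below 0.05 there were 2, Npy (p = 0.0131, adjusted p = 0.3051) and Gad1 (p = 0.04677, adjusted p = 0.4387), beside 11.1% of all genes. DESeq2 and limma-voom also called 0 members across the groups, beside 183 and 40 of the 18283 genes. In each of the 14 comparisons between groups, 0 members passed the adjusted threshold by edgeR, DESeq2 or limma-voom, and limma-voom at the criterion of the study, an unadjusted p below 0.05 with a fold change above 1.3, also gave 0. That criterion was met by 0.481% of all genes for defeated against unstressed, 0.613% for EE against SH and 0.454% for SUS against RES mice. In the other comparisons it was met by between 0.93% (SH SUS against SH control) and 3.24% (EE RES against SH RES) of all genes. At the adjusted threshold the most genes called in any comparison were 680 by DESeq2 and 444 by limma-voom, both for EE against SH. For every member and every pair of groups compared, the CPM ranges of the groups overlapped, as the plot of CPM per mouse shows.

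**Figure D1:**
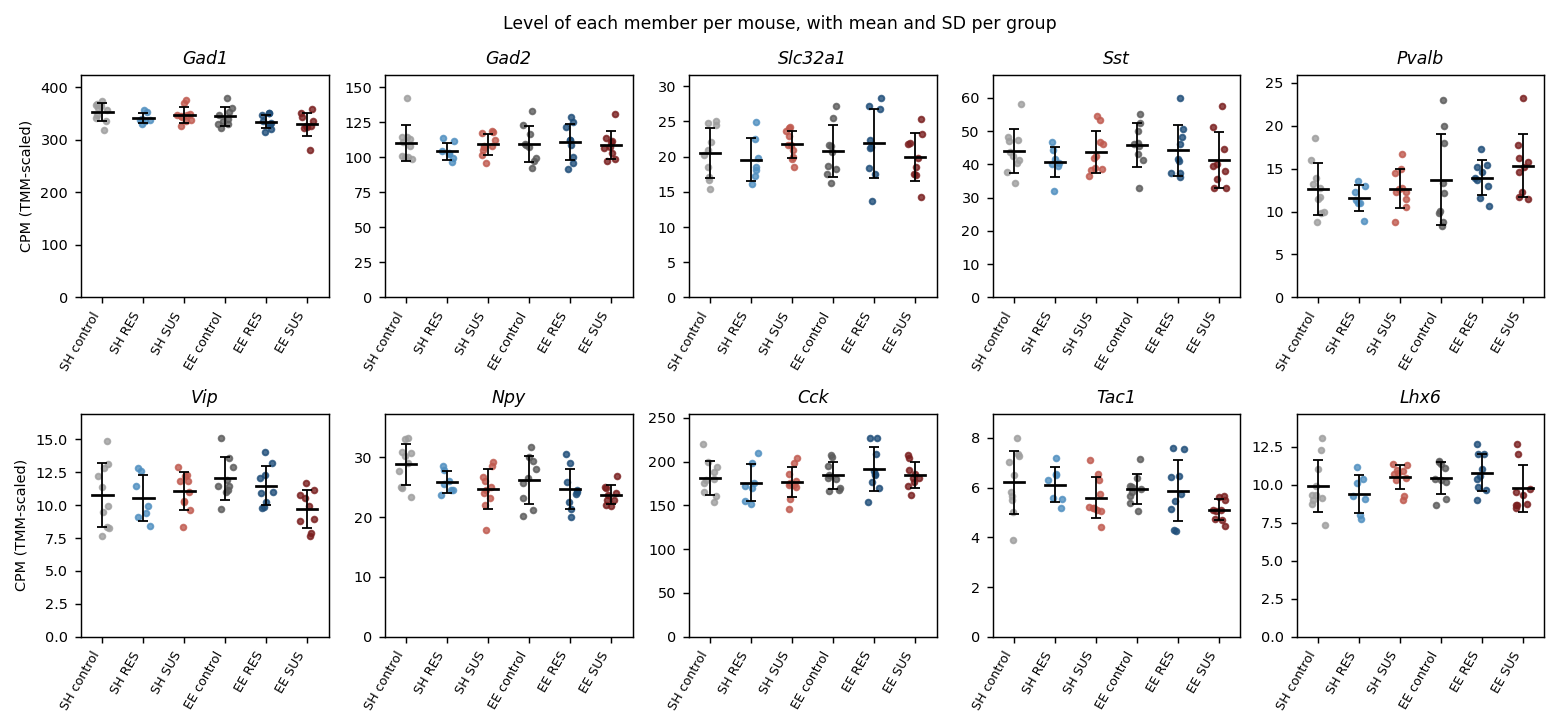
CPM of each of the 10 members (vertical axis from 0, TMM-scaled CPM) in each mouse, by group (horizontal axis), with points for mice, a bar at the mean and whiskers for the SD. In each panel the 6 groups overlap, and the points of Gad1 lie closest together while those of Pvalb spread the most.

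After defeat, the members stayed within a narrow range of their level in unstressed mice. Comparing the 4 defeated groups with the 2 control groups, 0 of 10 members passed the adjusted test (0.0438% of all genes did, all of them higher), and 2 had an unadjusted p below 0.05 (4.81% of all genes). The fold change was negative for 8 members and positive for 2, with a median log2 value of -0.03, beside a median of -0.0028 over all genes. All 10 of the 95% intervals lay within a 1.3-fold change in either direction, the widest reaching from -0.17 to 0.20 for Pvalb on the log2 scale. In a fit chosen after seeing the data, granule cell and oligodendrocyte marker scores were added to the model. There 5 of 10 members (Npy, Vip, Sst, Gad1 and Tac1) had an unadjusted p below 0.05, all lower. Of all 18283 genes 979 did, and 0 members passed the adjusted test. With marker scores of CA1, CA3, thalamus and choroid plexus instead, 1 member, Npy, had an unadjusted p below 0.05, as did 646 of all genes.

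Npy, which encodes neuropeptide Y, a peptide that restrains glutamate release in the dentate gyrus, had the smallest p of the 10 in this comparison. Its lowest, median and highest CPM were 23.35, 29.62 and 33.26 in SH control mice, 23.7, 25.54 and 28.51 in SH RES mice and 17.86, 24.77 and 29.22 in SH SUS mice. In EE mice they were 20.23, 26.52 and 31.76 for controls, 20.09, 24.15 and 30.53 for RES and 21.78, 23.7 and 26.83 for SUS. The highest values were those of unstressed mice in both housings, but all groups overlapped. All 10 SH SUS and all 7 SH RES mice were below the SH control median. In EE, 8 of 9 SUS and 7 of 9 RES mice were below the EE control median. The log2 fold change after defeat was -0.15 (SE 0.0483, 95% interval -0.25 to -0.06), with an unadjusted p of 0.002598 by edgeR and an adjusted p of 0.6845. In SH SUS against SH control mice it was -0.22 (SE 0.0758), with an unadjusted p of 0.004834 and an adjusted p of 0.9997. The difference after defeat was not shown to depend on housing, with an interaction of 0.08 (95% interval -0.12 to 0.27, adjusted p = 0.9069 by edgeR). For the interaction of defeat and housing 0 of 10 members had an unadjusted p below 0.05 (6.47% of all genes). Red cell markers were higher after defeat in 5 of 5 genes at an adjusted p below 0.05 (median log2 fold change 1.08), and the correlation of Npy with their score within groups was -0.0723. Thalamic markers were higher after defeat in 4 of 5 genes at an unadjusted p below 0.05, although 0 passed the adjusted threshold (median log2 fold change 0.40), and their correlation with Npy within groups was -0.362. With thalamic, CA1, CA3 and choroid plexus marker scores in the model, the Npy value was -0.14 (unadjusted p = 0.006321 by edgeR).

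Among the GABA synthesis and transport genes, Gad1, which encodes GAD67, had group means within a narrow range. Its mean CPM was 353.5 ± 16.89 (SD, n = 10) in SH control mice, 342.2 ± 9.774 (n = 7) in SH RES and 347.9 ± 15.09 (n = 10) in SH SUS mice. In EE it was 344.6 ± 17.67, 334.7 ± 12.75 and 329.7 ± 22.29 CPM (n = 9 each) in control, RES and SUS mice. The SDs of the groups overlapped throughout. The log2 fold change was -0.04 after defeat (95% interval -0.09 to -0.0027, unadjusted p = 0.03733, adjusted p = 0.9865) and -0.05 in EE against SH (95% interval -0.09 to -0.0089, unadjusted p = 0.01742, adjusted p = 0.1725 by edgeR). With the 4 marker scores of neighboring tissue in the model, the value after defeat was -0.03 with an unadjusted p of 0.1512. With granule cell and oligodendrocyte scores instead, it was -0.05 (unadjusted p = 0.02301 by edgeR). In EE against SH the values in these 2 fits were -0.04 and -0.05 (unadjusted p = 0.02889 and 0.02001 by edgeR). Gad2, which encodes the synaptic GAD65, had group means from 104.4 to 110.8 CPM, and Slc32a1 had group means from 19.58 to 21.89 CPM. Their log2 values after defeat were -0.02 (95% interval -0.10 to 0.05) and 0.01 (95% interval -0.13 to 0.14), and both EE against SH values were 0.02. None of these comparisons of Gad2 and Slc32a1 had an unadjusted p below 0.05 by edgeR.

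Housing was the factor with the most changed genes in this tissue, with 2.42% of all genes called for EE against SH, of which none was a member. Of the members 7 had a positive and 3 a negative fold change, with a median log2 value of 0.03 beside 0.0043 over all genes, and 2 of 10 had an unadjusted p below 0.05, beside 17.6% of all genes. For 9 of 10 members the 95% interval lay within a 1.3-fold change, with Pvalb the exception.

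**Figure D2:**
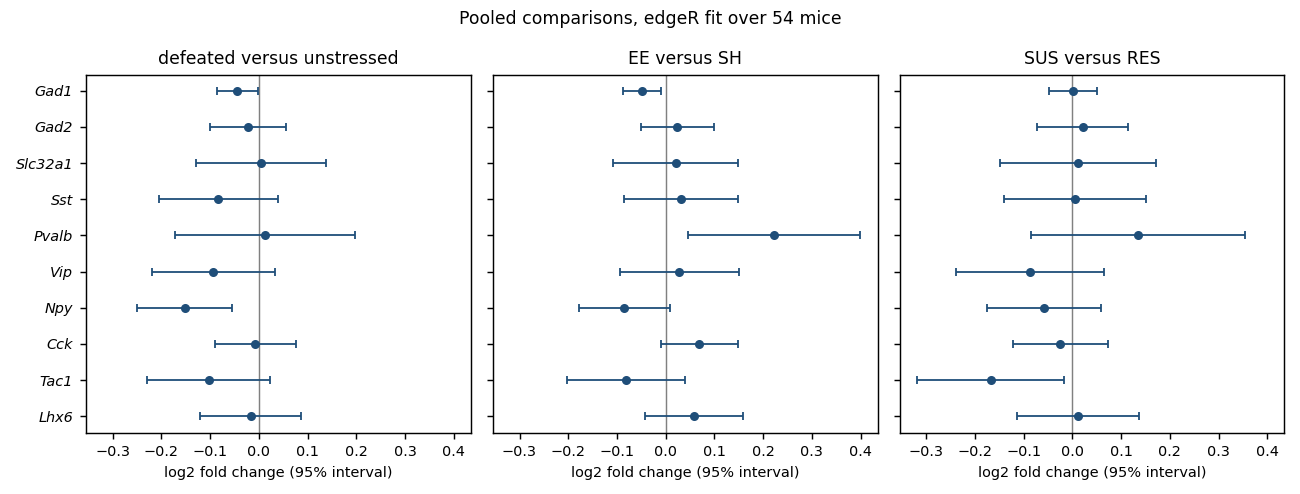
Log2 fold change (horizontal axis) of each member (vertical axis) for defeated versus unstressed, EE versus SH and SUS versus RES mice, from 1 edgeR fit of 54 mice, with points for estimates and bars for unadjusted 95% intervals. Most intervals include 0, and those of Npy and Gad1 after defeat, Gad1 and Pvalb in EE and Tac1 in SUS mice do not, although none passed the adjusted threshold.

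Pvalb encodes parvalbumin, the calcium buffer of fast-spiking basket cells. Its lowest, median and highest CPM were 8.73, 12.27 and 18.53 over the 27 SH mice and 8.375, 13.93 and 23.18 over the 27 EE mice. The lowest EE mouse was below the lowest SH mouse, and the EE mice also held the highest values. In EE the log2 fold change was 0.22 (SE 0.0881, 95% interval 0.05 to 0.40), with an unadjusted p of 0.01444 and an adjusted p of 0.1579 by edgeR. By group, mean CPM was 12.62 ± 2.99, 11.58 ± 1.545 and 12.68 ± 2.292 in SH control, RES and SUS mice and 13.72 ± 5.334, 13.94 ± 2.015 and 15.36 ± 3.653 in the same groups of EE. Oligodendrocyte markers, Mbp and Mog among them, moved with this difference. In EE against SH all 5 had a higher value at an unadjusted p below 0.05 and 2 passed the adjusted test, with a median log2 fold change of 0.27, while 3 of 6 granule cell markers were lower at an unadjusted p below 0.05 and 1 passed (median -0.15). The summed oligodendrocyte level ranged from 863.4 to 2122 CPM in SH groups and from 902.0 to 1973 CPM in EE groups, and that of granule cell markers from 431.4 to 797.7 and from 372.8 to 838.4 CPM. With the scores of both lists in the model, a setting chosen after seeing the data, the Pvalb value for EE against SH was -0.0011 (unadjusted p = 0.986 by edgeR). With CA1, CA3, thalamus and choroid plexus scores in the model instead, it was 0.17 (unadjusted p = 0.016 by edgeR).

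Sst, the peptide gene of the hilar dendrite-targeting cells, and Lhx6 had nearly the same level in both housings. Sst CPM was 43.11 ± 5.982 in 27 SH mice and 43.83 ± 7.54 in 27 EE mice, a log2 difference of 0.03 (95% interval -0.09 to 0.15). For Lhx6 the medians were 10.09 and 10.3 CPM, a log2 difference of 0.06 (95% interval -0.04 to 0.16). Cck, a peptide of basket cells that is also made by excitatory cells, had 178.2 ± 18.58 CPM in SH and 186.7 ± 18.61 CPM in EE mice, a log2 difference of 0.07 (95% interval -0.0097 to 0.15). Adjusted p-values by edgeR were 0.8304, 0.5844 and 0.365.

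SUS and RES mice were compared to ask whether the outcome of defeat was reflected in these genes. Of the 10 members 0 were called, as were 0% of all genes, and 1 member had an unadjusted p below 0.05 (3.67% of all genes). The median log2 value of the members was 0.0031 beside 0.0015 over all genes, and all 10 of the 95% intervals lay within a 1.3-fold change. The member was Tac1, which encodes the precursor of substance P. Its lowest, median and highest CPM were 4.261, 6.019 and 7.598 in the 16 RES mice and 4.407, 5.168 and 7.097 in the 19 SUS mice. The values of SUS mice thus lay within those of RES mice, with a lower median. SUS against RES, the log2 fold change was -0.17 (95% interval -0.32 to -0.02, unadjusted p = 0.03024, adjusted p = 0.9993 by edgeR). With the marker scores of CA1, CA3, thalamus and choroid plexus in the model it was -0.10 (unadjusted p = 0.1681). The CA3 and CA2 marker score correlated with Tac1 over mice, as described below.

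Vip, the peptide gene of interneuron-selective cells, was the member with the smallest p in EE SUS against EE control mice. Its lowest, median and highest CPM were 9.686, 11.48 and 15.14 in EE control mice, 9.814, 11.01 and 14.06 in EE RES mice and 7.641, 9.936 and 11.71 in EE SUS mice. In the order control, RES, SUS the SH medians were 10.67, 9.928 and 11.41 CPM. In EE SUS mice 8 of 9 values were below the EE control median and 4 of 9 were below all EE control mice, so the groups overlapped. The log2 fold change of EE SUS against EE control mice was -0.31 (SE 0.105, 95% interval -0.52 to -0.10), with an unadjusted p of 0.004753 and an adjusted p of 0.4023 by edgeR. Against EE RES mice it was -0.24 (unadjusted p = 0.02425, adjusted p = 0.9997), and the SUS against RES difference differed between housings by -0.31 (95% interval -0.62 to -0.0085, unadjusted p = 0.04415, adjusted p = 0.9767). CA1 markers moved with Vip in these mice, with a median log2 fold change of -0.38 in EE SUS against EE control mice and 1 of 4 lower at an unadjusted p below 0.05. Thalamic markers were higher in the same comparison in 5 of 5 genes at an unadjusted p below 0.05, with a median log2 fold change of 1.036, and Vip was lower where they were higher within groups (r = -0.367, adjusted permutation p = 0.0422). With CA1, CA3, thalamus and choroid plexus scores in the model, the Vip value of EE SUS against EE control mice was -0.16 (unadjusted p = 0.1247 by edgeR). With granule cell and oligodendrocyte scores instead, it was -0.28 (unadjusted p = 0.003893 by edgeR). Against EE RES mice the values in these 2 fits were -0.09 and -0.11 (unadjusted p = 0.3798 and 0.2357 by edgeR).

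Lhx6 also had an unadjusted p below 0.05 for the interaction of SUS against RES with housing. Mean CPM was 9.39 ± 1.249 (n = 7) in SH RES and 10.51 ± 0.806 (n = 10) in SH SUS mice. In EE the order was the other way, with 10.8 ± 1.239 in RES and 9.769 ± 1.543 in SUS mice (n = 9 each). The log2 interaction was -0.31 (95% interval -0.56 to -0.06, unadjusted p = 0.01684, adjusted p = 0.9767 by edgeR). With the 4 tissue scores it was -0.23 (unadjusted p = 0.04943), and with granule cell and oligodendrocyte scores -0.17 (unadjusted p = 0.1381). For this interaction 2 of 10 members had an unadjusted p below 0.05, against 4.84% of all genes, and 0 passed the adjusted test, as did 0% of all genes. The interval of the interaction extended beyond a 1.3-fold change for 5 members (Slc32a1, Sst, Pvalb, Vip and Lhx6), so that these group sizes do not bound it within that size for them.

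In the pairs of groups within each housing 0 members were called as well. Apart from SH SUS against SH control mice, 0% of all genes were called in these pairs too. Of all genes, between 47.35% (SH RES against SH control) and 51.55% (SH SUS against SH RES) had a positive fold change in them. In SH RES against SH control mice all 10 members had a negative fold change, with a median of -0.08 beside -0.0040 over all genes, but 0 had an unadjusted p below 0.05 (3.51% of all genes). In SH SUS against SH control mice, which shares the control mice with the comparison before, 6 of 10 were negative with a median of -0.01, and 1 had an unadjusted p below 0.05 (2.78%), while 0 of 10 were called, against 0.0328% of all genes. In EE SUS against EE control mice 8 of 10 were negative with a median of -0.08, and 2, Vip and Tac1, had an unadjusted p below 0.05 (7.9%). In EE RES against EE control mice 5 were positive and 5 negative, and 0 had an unadjusted p below 0.05 (7.91%). In SH SUS against SH RES mice 8 of 10 were positive, with 0 at an unadjusted p below 0.05 (4.88%), and in EE SUS against EE RES mice 9 of 10 were negative, with 1, Vip (3.52%).

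Within each phenotype, EE and SH mice were also compared. Between unstressed mice 0 members had an unadjusted p below 0.05 (5.02% of all genes) and 0 were called (0.00547%). Between RES mice 1 member, Lhx6, had an unadjusted p below 0.05 (16%) and 0 were called (0.273%), with a log2 value of 0.20 for Lhx6 (unadjusted p = 0.03176, adjusted p = 0.2568 by edgeR). In the same comparison 4 of 5 oligodendrocyte markers were higher and 4 of 6 granule cell markers were lower at an unadjusted p below 0.05 (median log2 fold changes 0.42 and -0.32). The Lhx6 value was 0.16 (unadjusted p = 0.07725 by edgeR) with the scores of neighboring tissue and 0.13 (unadjusted p = 0.1599) with granule cell and oligodendrocyte scores. Its unadjusted p was above 0.05 in 6 of the 54 fits without a mouse, the highest being 0.09704 without SH RES mouse 3. Between SUS mice 1 member, Gad1, had an unadjusted p below 0.05 (7.36%) and 0 were called (0.00547%), with a log2 value of -0.08 for Gad1 (unadjusted p = 0.02398, adjusted p = 0.6216 by edgeR). For Gad1 it was -0.05 (unadjusted p = 0.1078) without EE SUS mouse 8, the lowest of its group. Thalamic markers were higher in EE SUS than in SH SUS mice in 4 of 5 genes and oligodendrocyte markers in 4 of 5 at an unadjusted p below 0.05 (median log2 fold changes 0.60 and 0.35). With the scores of neighboring tissue the Gad1 value was -0.05 (unadjusted p = 0.1137 by edgeR), and 0 members had an unadjusted p below 0.05. With granule cell and oligodendrocyte scores the Gad1 value was -0.07 (unadjusted p = 0.04744 by edgeR).

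Differences between mice of the same group were shared among some members. After each group's mean was subtracted from log2 CPM, 15 of the 45 pairs of members were correlated over the 54 mice at an adjusted p below 0.05 (Pearson's r, permutation within groups, Benjamini-Hochberg over 45 pairs), and all 15 were positive. By Spearman's rho there were 16. The median r was 0.198 and the range -0.286 to 0.731. The share of pairs of other genes that pass in the same way was not computed, so this count has no background beside it. Each value is a share of the same library, so members share depth and dissection, and these p-values take mice as independent although the labels do not give the cages.

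**Figure D3:**
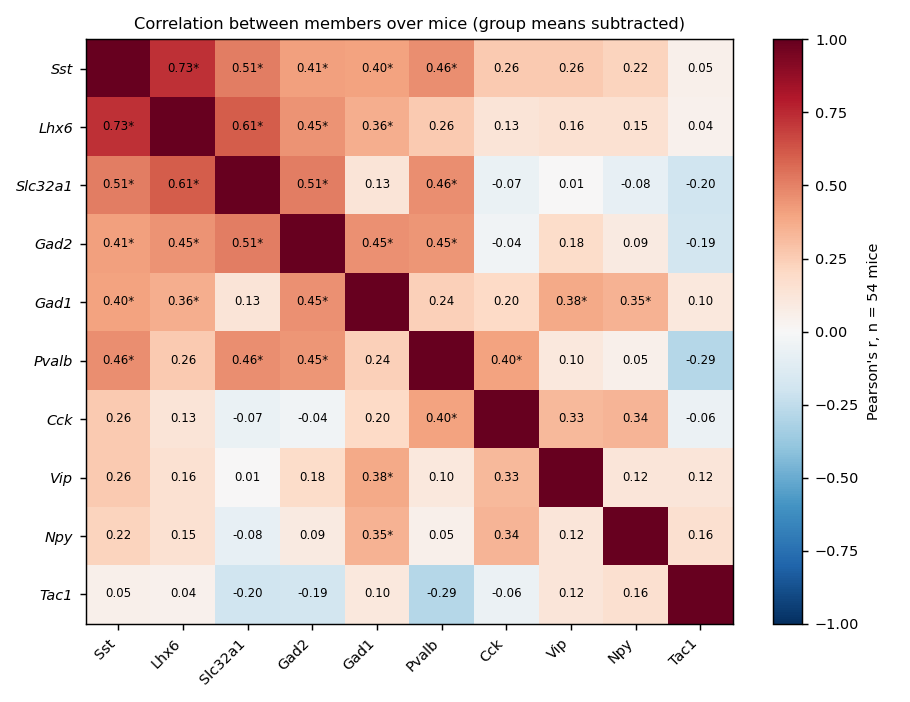
Pearson's r of log2 CPM between members over 54 mice after subtraction of group means, with color and number for r and a star for an adjusted permutation p below 0.05. The block of Sst, Lhx6, Slc32a1 and Gad2 holds r values from 0.409 to 0.731, whereas the rows of Npy and Tac1 hold 1 star between them.

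The strongest pair was Sst and Lhx6, with r = 0.731 (permutation p = 1e-05, the smallest that the resamples can give, adjusted p = 0.00045) and rho = 0.706 (adjusted p = 0.00045). Without the 2 mice farthest from the median of Sst, r was 0.697. The correlation was positive in all 6 groups and was 0.724 in defeated and 0.757 in unstressed mice. Lhx6 also correlated with Slc32a1 (r = 0.606, rho = 0.614, permutation p = 2e-05 for both, adjusted p = 0.00045) and Gad2 (r = 0.446, adjusted permutation p = 0.0086, rho = 0.489, adjusted p = 0.00555). Without the 2 farthest mice these were 0.606 and 0.537. Gad1 passed with Lhx6 by Pearson's r but not by rho (r = 0.365, adjusted permutation p = 0.0372, rho = 0.289, adjusted p = 0.105). For Vip, r with Lhx6 was 0.156 (permutation p = 0.328, adjusted p = 0.492) and with Sst 0.261 (permutation p = 0.0668, adjusted p = 0.143). Differences between these r values were not tested.

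Pvalb correlated with Sst (r = 0.462, adjusted permutation p = 0.00592, rho = 0.413), with Slc32a1 (r = 0.461, adjusted p = 0.00495, rho = 0.469), with Gad2 (r = 0.445, adjusted p = 0.00954, rho = 0.371) and with Cck (r = 0.403, adjusted p = 0.0086, rho = 0.429). Its r with Lhx6 was 0.263 (adjusted permutation p = 0.143). The 2 decarboxylase genes correlated with each other (r = 0.454, adjusted permutation p = 0.00778, rho = 0.403), but Gad1 and Slc32a1 had r = 0.128 (adjusted p = 0.537), whereas Gad2 and Slc32a1 had r = 0.514 (adjusted p = 0.00371, rho = 0.493). Npy passed only with Gad1 (r = 0.346, adjusted permutation p = 0.0331, rho = 0.357). Tac1 passed with none by Pearson's r and with Pvalb by Spearman's rho (r = -0.286, rho = -0.347, adjusted permutation p = 0.0615 and 0.0381).

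To see what else varied between the punches, each member was compared with the mean z-score of 11 marker lists, which gave 28 of 110 pairs at an adjusted permutation p below 0.05 by Pearson's r, 13 of them positive, and 22 by Spearman's rho. Genes outside the members were not compared with the lists in this way, so these counts have no background either. Among the members, Pvalb stood out with 6 such lists. It rose with oligodendrocyte markers (r = 0.728, rho = 0.754, adjusted permutation p = 0.00055 for both, 0.704 without the 2 farthest mice) and went down with granule cell markers (r = -0.713, rho = -0.675, adjusted p = 0.00055 for both, -0.729 without the 2 farthest). Its r was also 0.557 with CA3 and CA2 markers and -0.553 with mossy cell markers (adjusted permutation p = 0.000733 and 0.0011). The correlation with oligodendrocyte markers was positive in 5 of 6 groups and that with granule cell markers was negative in all 6.

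**Figure D4:**
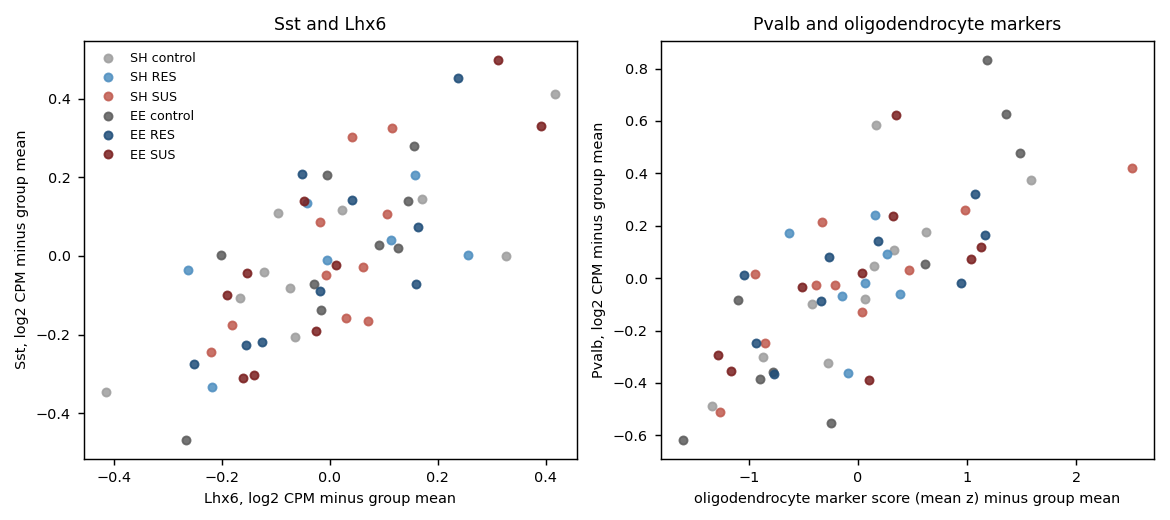
Each point is a mouse, colored by group, with the group mean subtracted on both axes. Left, Sst against Lhx6 (both log2 CPM, r = 0.731), and right, Pvalb (log2 CPM) against the mean z-score of 5 oligodendrocyte markers (r = 0.728), where both pairs rise together over 54 mice.

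Markers of granule cells, which make up most of the dentate gyrus, also went down as other members went up. The r values were -0.54 for Gad2, -0.51 for Slc32a1, -0.438 for Sst and -0.381 for Lhx6 (adjusted permutation p = 0.00244, 0.00204, 0.013 and 0.0177), compared with -0.132 for Gad1 and 0.194 for Npy, which did not pass. CA1 markers rose with Vip (r = 0.532, rho = 0.528, adjusted permutation p = 0.0011), Slc32a1 (r = 0.516, adjusted p = 0.0035), Sst (r = 0.431, adjusted p = 0.0124) and Lhx6 (r = 0.421, adjusted p = 0.0139). Tac1 was lower where CA3 and CA2 markers were higher (r = -0.511, rho = -0.509, adjusted permutation p = 0.00504). Gad1 was lower where thalamic markers were higher (r = -0.524, rho = -0.521, adjusted permutation p = 0.00202), as were Npy (r = -0.362, adjusted p = 0.0365) and Vip (r = -0.367, adjusted p = 0.0422), although by rho neither of the latter passed (rho = -0.285 and -0.336, adjusted p = 0.127 and 0.0793). The part of these markers in the correlations between members was not tested.

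**Figure D5:**
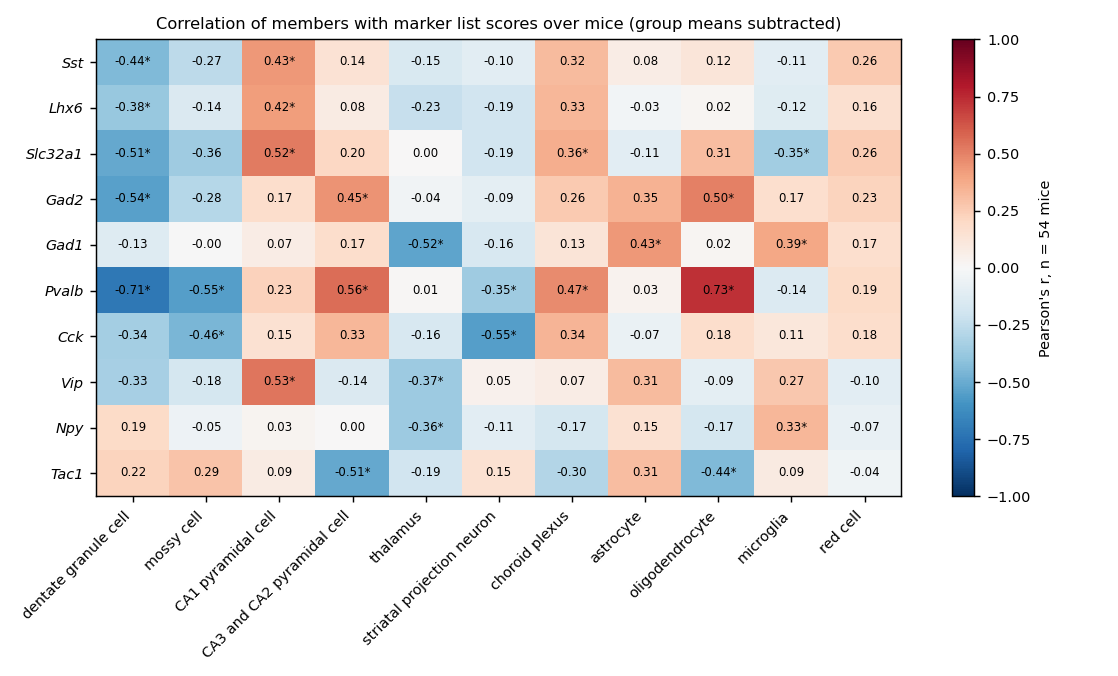
Pearson's r over 54 mice between log2 CPM of each member (rows) and the mean z-score of each of 11 marker lists (columns), group means subtracted, with a star for an adjusted permutation p below 0.05. Pvalb has the strongest values, 0.728 with oligodendrocyte and -0.713 with granule cell markers, and the granule cell column is negative for 8 of the 10 members.

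The genes most like each member over the 54 mice were sought among all genes tested. For Sst they were Cpne2 (r = 0.758), Npr3 (r = 0.743) and Lhx6 (r = 0.731). Those of Lhx6 included Cpne2 (r = 0.745) and the interneuron transcription factor gene Dlx1 (r = 0.739). For Pvalb they were Anln (r = 0.833), Emb (r = 0.83) and Stmn3 (r = 0.813). The nearest genes were Slc17a8, encoding the vesicular glutamate transporter VGLUT3, for Gad2 (r = 0.749), the neurosecretory protein gene Vgf for Slc32a1 (r = 0.818), Hapln1 for Gad1 (r = 0.642), Phb for Cck (r = 0.784), Meis2 for Vip (r = 0.653), Ska2 for Tac1 (r = 0.623) and Nudt3 for Npy (r = 0.59). These are descriptions over 54 mice, picked as the highest of all genes, and carry no test.

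Other genes of the interneuron program were tested in the same fit. Of 38 such genes, from the Dlx factors to the channel genes Kcnc1 and Kcnc2, 37 were tested and 0 passed the adjusted threshold in any comparison by edgeR. Across the 6 groups 4 had an unadjusted p below 0.05 (11.1% of all genes), after defeat 4 (1 higher, 3 lower, beside 4.81% of all genes) and in EE against SH 3 (2 higher, 1 lower, beside 17.6%), with median log2 values of -0.03 after defeat and 0.04 in EE. Cort, which encodes cortistatin, a peptide closely related to somatostatin, had the smallest p. Its lowest, median and highest CPM were 1.933, 3.12 and 4.492 in the 19 unstressed mice and 1.323, 2.548 and 3.577 in the 35 defeated mice. The ranges overlapped, with the lowest values in defeated and the highest in unstressed mice. Its log2 fold change after defeat was -0.36 (SE 0.0828), with an unadjusted p of 7.029e-05 and an adjusted p of 0.1168 by edgeR, while over the alternatives it ranged from 0.03607 by DESeq2 to 0.6051 with the scores of neighboring tissue.

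Kcnc2, a potassium channel gene of fast-spiking cells that other neurons also express, was the second of this list. Its median CPM was 136.9, 123.7 and 142.9 in SH control, RES and SUS mice and 123.7, 148.3 and 181.6 in the same groups of EE. The highest medians were those of defeated EE mice, whose ranges overlapped the rest. The log2 fold change of EE SUS against EE control mice was 0.42 (SE 0.1129, unadjusted p = 0.0004161, adjusted p = 0.1951 by edgeR), and across the 6 groups its adjusted p was 0.1111 by edgeR and ranged from 0.02758 by DESeq2 to 0.5617 with granule cell and oligodendrocyte scores. Thalamic markers were higher in EE SUS than in EE control mice in 5 of 5 genes at an unadjusted p below 0.05 (median log2 fold change 1.036). With the scores of neighboring tissue in the model the Kcnc2 value in this comparison was -0.01 (unadjusted p = 0.7397 by edgeR). Kcnc1 came next across the 6 groups (unadjusted p = 0.03077, adjusted p = 0.3835).

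The receptors through which the peptides act were examined next. Of 15 receptor genes for somatostatin, neuropeptide Y, VIP, cholecystokinin and tachykinins, 12 were tested and 0 passed the adjusted threshold in any comparison by edgeR. In EE against SH 4 of 12 were lower at an unadjusted p below 0.05 and 0 were higher, beside 8.7% and 8.93% of all genes in these directions, with a median log2 value of -0.04. The smallest p was that of Vipr1, which encodes the VIP receptor VPAC1. Its lowest, median and highest CPM were 17.24, 24.49 and 31.12 in SH and 17.23, 21.66 and 27.25 in EE mice, which overlapped, with the median lower in EE. The log2 fold change was -0.16 (SE 0.0475), with an unadjusted p of 0.001417 and an adjusted p of 0.05302 by edgeR, while over the alternatives it ranged from 0.03029 by DESeq2 to 0.4703 with granule cell and oligodendrocyte scores. Between unstressed mice of the 2 housings the Vipr1 value was -0.0053 (unadjusted p = 0.9474 by edgeR). In RES and SUS mice it was -0.28 and -0.20 (unadjusted p = 0.002361 and 0.01747, adjusted p = 0.107 and 0.5971). The interaction of defeat and housing was -0.23 (unadjusted p = 0.02291, adjusted p = 0.7555). Sstr2, a somatostatin receptor gene, had a median of 13.04 CPM in RES and 11.06 CPM in SUS mice (log2 fold change -0.17, SE 0.0645, unadjusted p = 0.009772, adjusted p = 0.9993). By housing, the SUS against RES value of Sstr2 was -0.29 in SH and -0.05 in EE (unadjusted p = 0.002487 and 0.5598 by edgeR). Its interaction with housing was 0.24 (unadjusted p = 0.06859, adjusted p = 0.9767). Vipr2, encoding VPAC2, ranged from 0.5271 to 14.92 CPM over the mice, and its log2 value in EE SUS against EE control mice was 1.495 (SE 0.4373, unadjusted p = 0.001198, adjusted p = 0.2844 by edgeR). Vipr2 moved with the 5 thalamic markers in this comparison (their median log2 fold change was 1.036), and with the scores of neighboring tissue the Vipr2 value was 0.01 (unadjusted p = 0.9389 by edgeR).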

How the data were processed

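The deposited files hold raw counts per Ensembl gene, which the authors made from stranded total RNA libraries aligned to mm10 with STAR. The submitters' processing notes name STAR and Picard, with versions not given in the sources used here. The methods name featureCounts, but the columns (unstranded, forward, reverse) are those STAR writes. Reverse-strand counts were used, and the 2 runs of EE control mouse 9 (log2 correlation 0.9982) were summed. Unmapped (13.89% to 19.85% of read pairs), multimapping (8.7% to 12.09%), unassigned (19.89% to 28.79%) and ambiguous (0.836% to 1.118%) rows were left out. Of the identifiers, 44671 of 45318 matched the annotation. Antisense genes overlap Gad1 and Slc32a1 but held at most 189 counts over all mice.

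Counts were normalized by TMM and tested in 1 fit of the 6 groups with edgeR 4.0.16 in R 4.3.3, after filterByExpr. The study states limma-voom, which was run as an alternative (limma 3.58.1), as was DESeq2 1.42.0. CPM and log2 CPM (prior count 2) were computed from the deposited counts. Correlations used permutation within groups with 100000 resamples (Python 3.11.15, SciPy 1.17.1). On simulated counts of SH SUS against SH control mice over 18152 genes, edgeR recovered 99% of 200 genes changed by a log2 value of 1. It also called 13 genes that were not changed. The fold changes of the members were all smaller than this, and recovery at their size was not simulated. For the defeat groups replicate numbers in the methods are lower than most of those in the labels. Which mice those were is not stated, and each labelled mouse was kept. P-values measure the spread between mice, whose cages and litters the labels do not give.

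The members and gene lists were chosen with earlier results of these data known. Named genes were the members, list genes that were called or had the 3 smallest p-values of their list across the 6 groups, and the 3 genes most correlated with each member. Some genes that this rule or the marker lists hold are not reported here. Alternatives covered normalization, filters, strand, the replicate block, runs, marker scores as covariates, and each mouse left out. Upstream sequences are from RefSeq.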

Additional observations from a re-analysis of the deposited data

Results flagged for a closer look

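In 3 of the 60 sets of 1 member in 1 group, a mouse stood apart from the rest by Dixon's criterion, which chance meets in about 1 in 20 sets. The EE SUS mouse 8 had the lowest Gad1 of its group at 281.1 CPM, with the next at 321.8 CPM. Without it, the log2 value of Gad1 in EE SUS against SH SUS mice went from -0.08 to -0.05 (unadjusted p = 0.1078 by edgeR). The SH control mouse 10 had the highest Gad2 of its group at 142.0 CPM, with the next at 114.7 CPM. Without it, the log2 value of Gad2 after defeat went from -0.02 to 0.0012. The EE SUS mouse 4 had the highest Gad2 of its group at 131.2 CPM, with the next at 113.5 CPM.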

How the results depend on the processing

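The count of members called stayed at 0 in all 15 tests under each of the 10 alternative settings and each of the 54 fits without a mouse. The smallest adjusted p of any member was 0.07953 (EE against SH). Mice of different groups with the same replicate number had a mean correlation of 0.0304 (126 pairs, 32 of them over 0.1). The mean over 1086 pairs with other numbers was -0.0035, and 11 of 54 mice were closest to their own number. The count that unrelated numbers would give was not computed. What the numbers stand for is not given by the labels. With the replicate block the count of members called was 0 in every test. Of all genes, 581 were called for EE against SH with the block and 442 without it, and 65 and 64 across the 6 groups. For EE RES against SH RES mice these were 228 and 50. With the block, members with an unadjusted p below 0.05 fell from 2 to 1 across the 6 groups. For SUS against RES mice they fell from 1 to 0 (smallest 0.05843 by edgeR). They rose from 2 to 3 in EE against SH and from 0 to 1 in SH RES against SH control mice. Between housings they rose from 1 to 2 in both RES and SUS mice. Of 290 fold changes of members under the other settings, 281 kept their direction and 9 reversed. After defeat, the reversed log2 values were 0.0021 for Lhx6, -0.0459 for Slc32a1 and -0.0826 for Pvalb with the scores of neighboring tissue and -0.0383 for Slc32a1 with granule cell and oligodendrocyte scores. In EE against SH they were -0.0296 for Slc32a1 with the scores of neighboring tissue, and -0.0395 for Gad2, -0.056 for Slc32a1, -0.0011 for Pvalb and -0.0044 for Sst with granule cell and oligodendrocyte scores. The cause was not tested. Leaving out 1 mouse, the log2 values after defeat that reversed ranged from -0.036 to 0.0012 for Gad2, from -0.0353 to 0.0096 for Lhx6, from -0.0159 to 0.0337 for Slc32a1, from -0.018 to 0.01005 for Cck and from -0.0191 to 0.076 for Pvalb. Npy after defeat ranged from -0.17 to -0.13, with unadjusted p between 0.0006559 and 0.008362. Gad1 after defeat lost its unadjusted p below 0.05 in 18 of the 54 fits, with the highest p of 0.1006 without EE control mouse 9. Among other interneuron genes and receptors, DESeq2 called 3 genes (Cort, Kcnc2 and Vipr1) and the fit with scores of neighboring tissue called 1 (Kcnc2), against 0 by edgeR. Pairs of members correlated numbered 15 or 16, and pairs with marker lists 22 to 30, under all settings of the correlations. Relative counting error is largest for the members with the fewest counts per mouse, such as Tac1 (79 to 275).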
